A study of Mus musculus with 16 samples.

Results

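Saa3, Lyz1 and Lyz2 were described in the macrophages of B16 melanomas, as 3 of the 32285 genes in the deposited matrices, matched by their symbols. Saa3 and Lyz1 were chosen by measured values, because they were among the largest rises under CD40 agonist in control tumours, and Lyz2 because it is the close copy of Lyz1. Values from that contrast are therefore given as a description without a test. C57BL/6J mice carried subcutaneous tumours of the Bro4.1 B16 melanoma line, which was either control or B2m-null, that is, without the light chain of MHC class I. They were injected with 100 mcg of anti-CD40 antibody, which activates the CD40 receptor of antigen-presenting cells, or of a rat IgG2a isotype antibody on days 6, 9 and 12, and the tumours were taken on day 14. CD45+ cells, that is, leukocytes, were enriched on magnetic columns, tagged with 1 hashtag antibody per mouse and pooled within a group for droplet 3' single-cell RNA sequencing.

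The sample labels put the genotype on the mouse, whereas the design text, followed here, gives it to the tumour line. The labels list 3 hashtags for every pool, but 6 of the 8 lanes' files hold 2, and mice were counted from the hashtags in the files, so every n rests on that count. The control isotype group had 5 mice in 2 pools, control CD40 had 2 mice in 1 pool run on 2 lanes, B2m-null isotype had 5 mice in 2 pools and B2m-null CD40 had 4 mice in 2 pools. Mice of a pool shared a lane, so p-values over mice treat mice with shared processing as independent, and the single pool of control CD40 cannot be told apart from its treatment. The 8 lanes held 45985739 to 99264875 unique molecular identifiers (UMIs, 1 per captured transcript), with a median of 1715 to 4225 per barcode. Levels are given as CPM, the UMIs of a gene in proportion to all UMIs of the same cells. In the 3' assay a transcript is tagged once at its end, so CPM is not divided by gene length. Hashtags assigned 40.4% to 93.1% of the barcodes of a lane, lowest in B2m-null isotype replicate 1, and 73952 assigned cells passed the filters. Between 0.308% and 0.623% of barcodes were shared by a pair of lanes. B2m itself, in the few melanoma-like cells of each lane, was at 1083 to 2135 CPM in control tumours and at 194 to 465 in B2m-null tumours. In macrophage-like cells, which come from the mouse, it was at 3751 to 5879 CPM in control tumours and at 2731 to 4451 in B2m-null tumours. The low values thus lay in the melanoma-like cells, where the design text places the genotype. Macrophage-like cells, hereafter macrophages, are the clusters named from 8 markers, including C1qa, C1qb, C1qc, Adgre1 and Csf1r. Over all mice these markers summed to 7680 to 12221 CPM in macrophages. In classical monocyte-like cells they summed to 2786 to 5337, so they are not exclusive to the class.

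Saa3 encodes a serum amyloid A protein, a family of small lipid-binding proteins of the acute-phase response. Saa1 and Saa2 are made mainly by the liver, whereas Saa3 of the mouse is made locally by macrophages, fat cells and stromal cells, and its gene is a classical target of C/EBP and NF-kB factors downstream of IL-1, TNF and bacterial products. Lysozymes cut the peptidoglycan of bacterial walls. In the mouse a duplication gave Lyz2, the lysozyme of monocytes, macrophages and neutrophils and the usual myeloid marker (LysM), and Lyz1, known as the lysozyme of intestinal Paneth cells.

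The genes lie in 2 clusters of relatives. Saa3 (ENSMUSG00000040026) has 4 exons at chr7:46711998-46715700 on the minus strand of GRCm38, 24796 bases from Saa1. Lyz2 (ENSMUSG00000069516, chr10:117277331-117282321) and Lyz1 (ENSMUSG00000069515, chr10:117287797-117292868) have 4 exons each on the minus strand of chromosome 10 and are 5475 bases apart. The 250 bases before the RefSeq start site of Saa3 are shown because Saa3 was the member that changed most in monocytes, with a match to the C/EBP-type motif TTNNGCAA in capitals, which begins 99 bases before the start.
Saa3, chr7:46715677-46715926, minus strand, GRCm38.p6: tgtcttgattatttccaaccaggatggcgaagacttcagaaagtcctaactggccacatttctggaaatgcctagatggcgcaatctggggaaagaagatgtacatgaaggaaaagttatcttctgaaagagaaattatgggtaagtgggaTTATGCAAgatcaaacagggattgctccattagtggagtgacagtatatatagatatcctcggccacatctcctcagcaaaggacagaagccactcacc
Of 32851 such windows in RefSeq, 9.56% held this motif on either strand. The NF-kB-type motif, GGG and CC with any 5 bases between, held by 45.8% of windows, the AP-1-type TGANTCA (6.75%), the GAS-type TTCNNNGAA (7.02%) and TATAAA (12.4%) had no match in the Saa3 window. Saa1 and Saa2 each had a C/EBP-type match, beginning 182 and 183 bases before the start, and an NF-kB-type match at 78 and 79 bases.

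The corresponding windows of Lyz1 and Lyz2 are shown because the copies differ there more than in their coding sequence. Whether these differences bear on the level of either gene was not tested. Capitals mark the bases that differ in the alignment of the windows, or that face a gap.
Lyz1, chr10:117292869-117293118, minus strand, GRCm38.p6: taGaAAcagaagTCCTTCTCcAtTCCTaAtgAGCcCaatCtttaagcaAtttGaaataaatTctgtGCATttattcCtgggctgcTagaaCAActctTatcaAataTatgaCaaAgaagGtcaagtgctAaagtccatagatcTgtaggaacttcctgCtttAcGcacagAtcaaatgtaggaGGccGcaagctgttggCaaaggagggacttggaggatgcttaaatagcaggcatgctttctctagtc
Lyz2, chr10:117282273-117282522, minus strand, GRCm38.p6: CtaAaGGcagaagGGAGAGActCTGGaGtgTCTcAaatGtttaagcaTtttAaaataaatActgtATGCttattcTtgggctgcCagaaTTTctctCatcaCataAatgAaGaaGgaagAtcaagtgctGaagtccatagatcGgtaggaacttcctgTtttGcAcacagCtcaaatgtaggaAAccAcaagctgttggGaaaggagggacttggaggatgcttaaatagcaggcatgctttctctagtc
The windows were 79.4% identical over 252 aligned columns, 92.0% over the 100 bases next to the start and 71.1% over the remainder. Of the 5 motifs, Lyz1 held the C/EBP-type, beginning 209 bases before the start, and Lyz2 held none.

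The coding sequences were 95.05% identical, with 422 of 444 positions shared, and the last 400 bases of the transcripts nearest the end that the 3' assay captures were 94.8% identical. The stretch of 90 coding bases with the most differences, bases 43 to 132, is shown with its 13 differences in capitals.
Lyz1: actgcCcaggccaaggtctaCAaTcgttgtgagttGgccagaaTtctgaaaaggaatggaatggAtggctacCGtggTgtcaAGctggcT
Lyz2: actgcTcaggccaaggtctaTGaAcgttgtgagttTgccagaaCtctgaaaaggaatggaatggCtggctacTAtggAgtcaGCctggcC
Of the 50-base windows in the last 400 bases of Lyz1, 19.1% occur unchanged in Lyz2, and of the 91-base windows 4.52%. A read from such a window fits both genes, and how these reads were counted is not given in the sources used here. Lyz1 and Lyz2 are therefore reported together below, also as the number of Lyz1 UMIs per 1000 Lyz2 UMIs, a ratio that the scaling of libraries cannot move.

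Saa3 was low in the macrophages of every isotype mouse and high in every CD40 mouse. In control tumours under isotype, Saa3 was at 10.0, 39.2, 30.9, 19.6 and 38.3 CPM in mice 1 to 5, and under CD40 at 308 and 441 in mice 1 and 2. In B2m-null tumours it was at 18.6, 38.8, 69.3, 29.3 and 80.0 CPM under isotype and at 158, 161, 213 and 144 under CD40. The lowest CD40 mouse stood above the highest isotype mouse in both kinds of tumour, and the control CD40 mice stood above the B2m-null CD40 mice. The control CD40 mice were 1 pool and belong to the contrast that chose Saa3. Nothing about the tumour genotype is therefore read from their higher values. The stated choice of the genes rested on control tumours, but earlier results of these data were known when it was made. Tests in the B2m-null mice are therefore not independent of that knowledge. In B2m-null tumours Saa3 was at 169 ± 30.3 (SD, n = 4) under CD40 and at 47.2 ± 26.3 (SD, n = 5) under isotype. The log2 change was 2.06 ± 0.35 (SE), with an adjusted p of 0.000303 in edgeR's quasi-likelihood test with Benjamini-Hochberg adjustment. With a stricter filter on cells it was smaller, at 1.46 (adjusted p = 0.00945, edgeR). In control tumours the fitted log2 change was 3.92, given without a test.

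Lyz1 was scarce under isotype and rose under CD40 in B2m-null tumours. It was at 15.9, 14.9, 22.4, 13.6 and 49.1 CPM in control isotype mice and at 183 and 110 in control CD40 mice. In mice with B2m-null tumours it was at 24.0, 37.3, 18.1, 38.9 and 47.8 under isotype and at 295, 47.4, 163 and 175 under CD40. B2m-null CD40 mouse 2 was level with the highest isotype mouse, so that these groups overlapped by 1 mouse, and the other 3 CD40 mice stood far above it. The log2 change in B2m-null tumours was 2.46 ± 0.41 (SE; adjusted p = 0.000307, edgeR's quasi-likelihood test with Benjamini-Hochberg adjustment). The fitted change in control tumours was 2.75, without a test.

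Lyz2 was abundant in every mouse and moved least. It was at 3419, 4226, 4053, 3434 and 5256 CPM in control isotype mice and at 4456 and 5138 in control CD40 mice. In B2m-null tumours it was at 5315, 4081, 3457, 4856 and 6222 under isotype and at 5403, 4876, 8330 and 8596 under CD40. The groups overlapped in both kinds of tumour, and both high B2m-null CD40 mice came from pool 2. The log2 change in B2m-null tumours was 0.72 ± 0.19 (SE), with an adjusted p of 0.00804 in edgeR's quasi-likelihood test with Benjamini-Hochberg adjustment. That call rests on single lanes: without B2m-null CD40 replicate 2 the log2 change was 0.28 (adjusted p = 0.352, edgeR), and without B2m-null isotype replicate 1 it was 0.50 (adjusted p = 0.147, edgeR). With the lane in place of the mouse as the sample it was 0.60 (adjusted p = 0.119, edgeR). The fitted change in control tumours was 0.38, without a test.

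All 3 members passed the filter on low counts and were called higher in B2m-null macrophages, beside 16.5% of the 11669 genes tested that were called higher and 33.0% called in either direction. Mice of the 2 groups did not overlap for Saa3, as for 12.3% of genes with every CD40 mouse higher, and overlapped for Lyz1 and Lyz2. Without B2m-null CD40 replicate 2 the number of genes called fell from 3848 to 1965, and without B2m-null isotype replicate 1 to 2305. In control tumours 26.7% of genes were called in either direction and 13.4% higher under CD40, and mice did not overlap, with CD40 higher, for 21.0%. Nothing is read from the members' place there because that contrast chose them. The 3121 genes behind the 26.7% became 1416 without control CD40 mouse 1, 1605 without mouse 2 and 2073 without control isotype replicate 1. The 3 members together took 0.354% to 0.635% of a mouse's macrophage UMIs in B2m-null isotype and 0.508% to 0.892% in B2m-null CD40, with overlap, and 0.345% to 0.534% and 0.495% to 0.569% in control isotype and CD40.

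**Figure D1:**
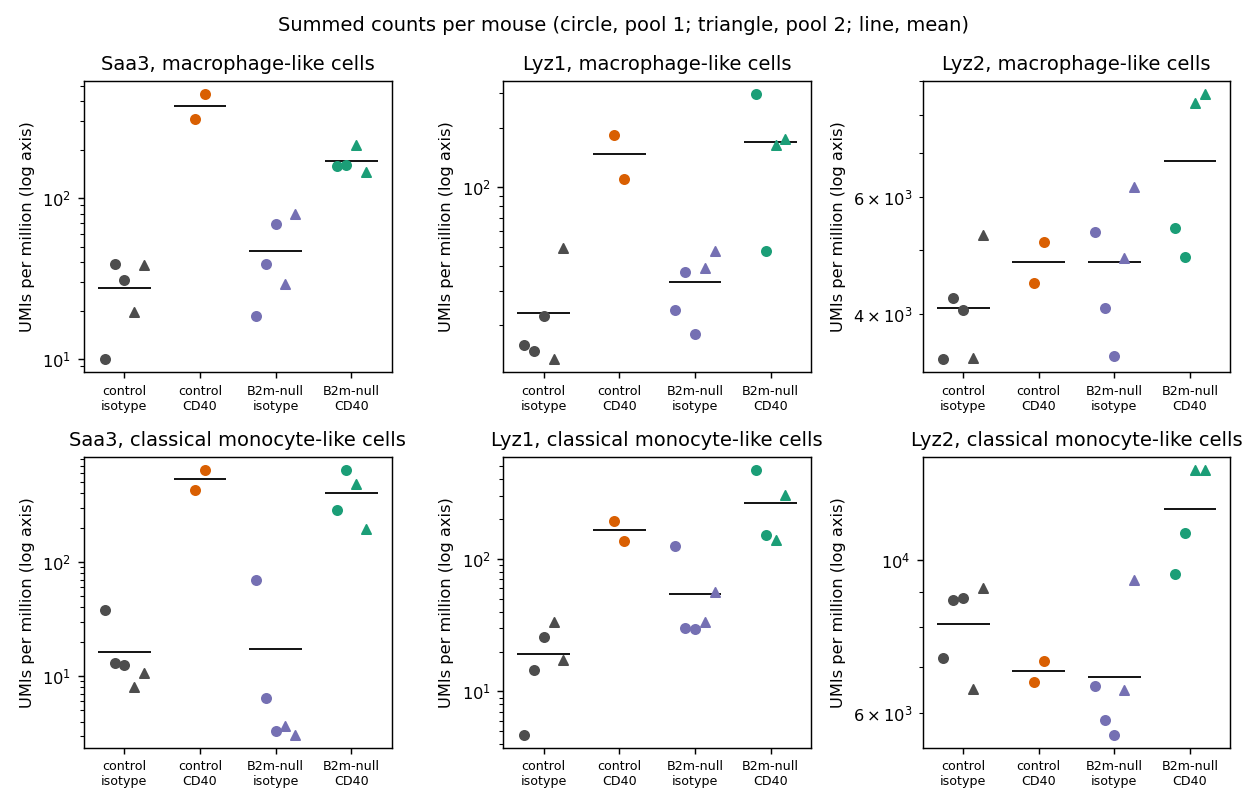
CPM of Saa3, Lyz1 and Lyz2 (log axes) in macrophage-like cells (top) and classical monocyte-like cells (bottom), with 1 point per mouse, circles for pool 1 and triangles for pool 2 of each group, and the mean as a line. In macrophages the CD40 mice of B2m-null tumours lie at 144 to 213 for Saa3, above the isotype mice at 18.6 to 80.0, whereas the Lyz2 points of these groups overlap.

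Classical monocyte-like cells, hereafter monocytes, had little Saa3 under isotype and much of it under CD40. In control isotype mice Saa3 was at 37.9, 13.1, 12.5, 7.97 and 10.6 CPM, and in control CD40 mice at 429 and 642. In B2m-null isotype mice it was at 70.0, 6.48, 3.30, 3.65 and 3.08, which rest on 18, 3, 1, 9 and 4 UMIs, and in B2m-null CD40 mice at 289, 635, 487 and 194. B2m-null isotype mouse 1 stood apart from its group but below every CD40 mouse, so the groups did not overlap. The log2 change in B2m-null tumours was 5.83 ± 0.52 (SE; adjusted p = 1.83e-08, edgeR's quasi-likelihood test with Benjamini-Hochberg adjustment). Its size varied with the isotype mice kept: it was 7.03 without B2m-null isotype replicate 1, 6.90 without mouse 1 of that group alone and 4.44 without B2m-null isotype replicate 2. The fitted change in control tumours was 5.35, without a test.

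Both lysozymes were higher in the monocytes of CD40 mice with B2m-null tumours. Lyz1 was at 4.73, 14.5, 25.7, 33.3 and 17.3 CPM in control isotype mice, the first from 3 UMIs, and at 194 and 135 in control CD40 mice. In mice with B2m-null tumours it was at 124, 30.2, 29.7, 33.2 and 56.2 under isotype and at 469, 151, 140 and 305 under CD40, with no overlap. Its log2 change was 2.65 ± 0.36 (SE; adjusted p = 6.08e-06, edgeR's quasi-likelihood test with Benjamini-Hochberg adjustment).

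Lyz2 was the most abundant of the 3 in monocytes, at 7213, 8761, 8811, 6511 and 9118 CPM in control isotype mice and at 6655 and 7138 in control CD40 mice. In B2m-null tumours it was at 6565, 5861, 5588, 6491 and 9367 under isotype and at 9539, 10944, 13498 and 13505 under CD40. The B2m-null groups did not overlap, by a narrow margin at isotype mouse 5, and the log2 change was 1.01 ± 0.15 (SE; adjusted p = 1.35e-05, edgeR's quasi-likelihood test with Benjamini-Hochberg adjustment). In control tumours the fitted Lyz2 change was -0.14 and that of Lyz1 3.09, both without a test. Lyz2 was higher in monocytes than in macrophages in each of the 16 mice.

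All 3 members were called higher in B2m-null monocytes, beside 17.5% of 9119 genes called higher and 34.9% in either direction. The mice did not overlap for any of the 3, as for 13.3% of genes with every CD40 mouse higher. In control monocytes 10.0% of genes were called (6.15% higher under CD40) and 15.8% did not overlap, with CD40 higher, and nothing is read from that for the members. The 914 genes behind the 10.0% became 199 without control CD40 mouse 2, 528 without mouse 1, 600 without replicate 2 of that group and 352 without control isotype replicate 1.

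The monocytes of the 2 treatments were largely different clusters. Cluster 3, led by Chil3 and Vcan, held 98.0% of monocytes in B2m-null isotype and 19.5% in B2m-null CD40. Cluster 9, led by Ly6i, Nos2 and Cfb, held 2.04% and 80.5%. In control tumours cluster 9 held 8.89% of monocytes under isotype and 51.9% under CD40. The clusters were made without the 3 members. Within cluster 3 alone, a fit chosen after the data had been seen, all 3 members were higher in B2m-null CD40 mice: Saa3 by 3.38 ± 0.72 (adjusted p = 0.00234), Lyz1 by 1.53 ± 0.45 (adjusted p = 0.0217) and Lyz2 by 0.86 ± 0.15 (adjusted p = 0.000441) on the log2 scale (± SE, edgeR's quasi-likelihood test), where 9.34% of the 6971 genes tested were called higher. Saa3 in cluster 3 was below its level in cluster 9 of the same mouse in all 4 B2m-null CD40 mice: 82.4, 349, 34.5 and 30.5 CPM against 317, 643, 678 and 259. Only 1 B2m-null isotype mouse had the minimum of 20 cells in cluster 9, so no change was fitted there.

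Markers of other cells moved with the monocyte result. The summed level of the 7 monocyte markers was 5627 to 6661 CPM in B2m-null isotype monocytes and 3021 to 4025 under CD40, whereas that of the 8 macrophage markers was 2786 to 3384 and 4158 to 5181. The 7 neutrophil markers summed to 54.0 to 96.2 and 88.0 to 173, and the 6 fibroblast markers to 4.46 to 34.6 and 11.8 to 28.9. In macrophages the macrophage markers summed to 7680 to 12221 over all groups. There the neutrophil markers summed to 19.7 to 60.2 in B2m-null isotype and 58.5 to 80.6 in B2m-null CD40 with 1 of the 7 at 0, and to 25.2 to 43.5 and 59.7 to 76.5 in control isotype and CD40. The 7 T cell markers summed to 3.58 to 20.2 and 12.6 to 21.0 in B2m-null macrophages and to 6.22 to 13.7 and 28.1 to 33.6 in control macrophages. Fibroblast markers, whose cells are rich in Saa3, summed to 5.64 to 33.8 in B2m-null isotype macrophages and 7.23 to 26.4 under CD40. Other lists were lower under CD40 without overlap in B2m-null monocytes: the 6 cDC2 markers summed to 216 to 466 and 32.8 to 105, the 6 non-classical monocyte markers to 122 to 178 and 53.1 to 57.5, and the 6 B cell markers to 57.1 to 109 and 33.2 to 51.5. In B2m-null macrophages the 5 melanoma markers summed to 36.6 to 69.6 under isotype and 18.2 to 24.0 under CD40, the 6 cDC1 markers to 51.9 to 73.1 and 36.3 to 45.0, and the 6 NK cell markers to 2.66 to 9.58 and 1.57 to 2.40. The part of these other transcripts in the results was not tested.

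Macrophages themselves fell into clusters that held Saa3 and Lyz1 very unequally. Lyz2 differed less: over the lanes it was at 5056 to 10603 CPM in cluster 4, 4029 to 10117 in cluster 5 and 3164 to 7330 in cluster 0. Cluster 4, led by Cd209f, Lyve1 and Cd163, genes of resident tissue macrophages, held the highest median Saa3 and Lyz1 of the macrophage clusters in each group. Ltc4s was also among its leading genes. At a clustering resolution of 2, a cluster led by Cd209f and Lyve1 drew 15.1% of its cells from control CD40. Another, led by Tppp3 and Ltc4s, drew 59.6% from that group. How the cells of cluster 4 divide between these was not counted, so its leading genes need not describe all of its CD40 cells. In cluster 4 Saa3 was at 58.1, 129, 251, 241 and 178 CPM in control isotype mice and at 785 and 1164 in control CD40 mice. In mice with B2m-null tumours it was at 80.7, 51.5, 193, 111 and 259 under isotype and at 270, 969, 416 and 257 under CD40. The B2m-null groups overlapped only at isotype mouse 5, whose value comes from 1418 UMIs. Lyz1 in cluster 4 was at 28.0 to 106 (median 79.7) in B2m-null isotype mice and at 190 to 631 (median 385) in B2m-null CD40 mice. These ranges did not overlap, but the share of all genes without overlap in this cluster was not counted.

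Cluster 0, led by Vcam1 and Stab1, was the largest macrophage cluster under isotype and nearly without Saa3. Its Saa3 level was 0.919 to 8.25 CPM in control isotype mice and 13.0 and 145 in control CD40 mice. In B2m-null tumours it was 5.12 to 17.9 under isotype and 29.6, 63.6, 96.9 and 47.7 under CD40. In B2m-null tumours every CD40 mouse stood above every isotype mouse. The share of all genes that did so in this cluster was not counted, so nothing is read from the lack of overlap.

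Cluster 5, led by H2-M2, Gpnmb and Orm1, exceeded all other cells in the 8 macrophage markers by a mean log2 of 0.42. That excess was 1.23 in cluster 0 and 1.18 in cluster 4. At a clustering resolution of 2, a cluster led by H2-M2 and Orm1 was named macrophage. Another, which shares the leading genes Gpnmb, Gng11 and Il18bp with cluster 5, was left unnamed, with a median of 1326 UMIs. It drew 76.5% of its cells from control CD40. How many cells of cluster 5 it took was not counted, so the macrophage name is less secure for cluster 5. Cluster 5 was scarce under isotype and common under CD40. It held 6.97% of macrophages in control isotype and 52.9% in control CD40, 3.04% in B2m-null isotype and 20.1% in B2m-null CD40. Saa3 there was at 0 to 33.1 CPM in control isotype mice, from 0 to 16 UMIs, and at 272 and 492 in control CD40 mice. In the 3 B2m-null isotype mice with at least 20 such cells it was at 0, 9.75 and 43.1, from 0, 2 and 2 UMIs, and in B2m-null CD40 mice at 498, 162, 280 and 332. The isotype values rest on few cells and UMIs, and the highest of them lay within the range of all isotype macrophages.

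Fits within these clusters, chosen after the data had been seen, gave the change in B2m-null tumours within a cluster. A cluster can still hold a different mix of cells by treatment. At a clustering resolution of 2, a macrophage cluster led by Stab1 drew 64.0% of its cells from B2m-null isotype and 12.0% from B2m-null CD40. For another, led by Tppp3 and Ltc4s, these were 5.88% and 29.1%. The part of such shifts in the fits was not tested. Saa3 was higher by 2.61 ± 0.47 in cluster 0 (adjusted p = 0.000421) and by 1.83 ± 0.40 in cluster 4 (adjusted p = 0.00275) on the log2 scale (± SE, edgeR's quasi-likelihood test). In cluster 5, with 4 Saa3 UMIs in all B2m-null isotype mice, no fold or test is given for Saa3. Lyz1 was higher by 1.70 ± 0.37 in cluster 0 (adjusted p = 0.00202, edgeR) and by 2.57 ± 0.32 in cluster 4 (adjusted p = 7.27e-06, edgeR), and its value in cluster 5 was 1.95 ± 0.60 (adjusted p = 0.0787, edgeR). Lyz2 was higher by 0.60 ± 0.21 in cluster 0 (adjusted p = 0.0338, edgeR) and by 0.73 ± 0.17 in cluster 4 (adjusted p = 0.00507, edgeR), with 0.70 ± 0.42 in cluster 5 (adjusted p = 0.416, edgeR). Of the genes tested in clusters 0, 4 and 5, 15.7%, 9.11% and 1.49% were called higher.

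Among the other phagocyte clusters, cluster 17, led by the interferon-response genes Rsad2 and Ifit2, had Saa3 medians of 9.49 CPM in B2m-null isotype mice and 36.2 in B2m-null CD40 mice, with overlapping ranges. Cluster 19, led by the heat-shock gene Hspa1a, had medians of 10.4 and 14.2. Cluster 1, led by Mmp13, Mmp12 and Arg1 and left unnamed, had medians of 25.96 and 97.0 in the same groups, with ranges of 13.7 to 113 and 49.8 to 259, and so stood above the medians of cluster 0 (9.39 and 55.6).

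The clusters were then set aside and all phagocytes gated together, that is, macrophages, monocytes and the unnamed clusters 1 and 25. Gates were set on single genes or small lists of a subset, with at least 2 UMIs, so that 1 cell could enter several gates. The clusters that fill a gate can differ by treatment. Cluster 9, with Nos2 among its leading genes, drew 74.9% of its cells from B2m-null CD40 and 1.80% from B2m-null isotype. For cluster 25, led by Mmp9 and Ctsk, these were 86.5% and 2.10%. The part of this in the gate results was not tested. In B2m-null tumours 21 comparisons of a member in a gate could be made, and 8 had an adjusted p of 0.0417, the others being higher, in exact two-sided permutation tests on log2(CPM + 1), with Benjamini-Hochberg adjustment over the 21. In the Vcam1 gate all 3 members passed: Saa3 was at 218 ± 106 under CD40 (SD, n = 4) and 17.4 ± 12.5 under isotype (SD, n = 5), a log2 difference of 3.71, Lyz1 differed by 3.22 and Lyz2 by 0.82. In the Mmp12 gate Saa3 differed by 2.81 and Lyz1 by 1.56. In the Arg1 gate, set on the arginase gene, Saa3 was at 218 ± 83.1 and 51.9 ± 37.5 and differed by 2.28, while Lyz1 differed by 0.94 (exact permutation test, adjusted p = 0.193). In the resident-like gate (Lyve1, Cd163, Folr2) Lyz1 differed by 1.96, and Saa3, at 185 ± 71.2 and 83.7 ± 75.5, by 1.42 with overlapping mice (exact permutation test, adjusted p = 0.0889). In the interferon gate (Ifit1, Ifit2, Ifit3, Rsad2) Lyz1 differed by 2.25, and Saa3 by 2.58 (exact permutation test, adjusted p = 0.0667).

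Other gates were too thinly filled for their test to pass. In the Nos2 gate Saa3 was at 368 ± 181 in 4 CD40 mice and at 10.4 ± 11.3 in the 2 isotype mice with at least 20 cells, where the smallest exact permutation p is 0.133. The Ctsk gate had 3 isotype mice and a smallest exact permutation p of 0.0571, which Saa3 reached with 233 ± 61.1 against 15.7 ± 5.25. No B2m-null isotype mouse had 20 cells in the H2-M2 gate, where Saa3 was at 1230, 1105, 203 and 245 in the B2m-null CD40 mice, high in both mice of pool 1, and at 241 and 605 in the control CD40 mice. With every cell thinned to an equal depth, 3 calls were lost, the other 5 were kept and Lyz2 in the interferon gate was gained (0.52, exact permutation test, adjusted p = 0.0476). Those lost were Saa3 in the Arg1 gate, with a thinned difference of 2.42 (exact permutation test, adjusted p = 0.114), Lyz1 in the Mmp12 gate, with 1.44 (adjusted p = 0.0952), and Lyz1 in the interferon gate, with 3.19 (adjusted p = 0.0714). Counting every gate, the mice did not overlap in 12 of the 21 comparisons. Of the 11669 genes tested in macrophages, not filtered again for low counts within a gate, every CD40 mouse was higher than every isotype mouse for 4.55% in the resident-like gate, 4.36% in the interferon gate, 4.88% in the Arg1 gate, 4.37% in the Mmp12 gate and 5.42% in the Vcam1 gate. It was 12.1% in the Nos2 gate and 5.59% in the Ctsk gate, which held fewer isotype mice.

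**Figure D2:**
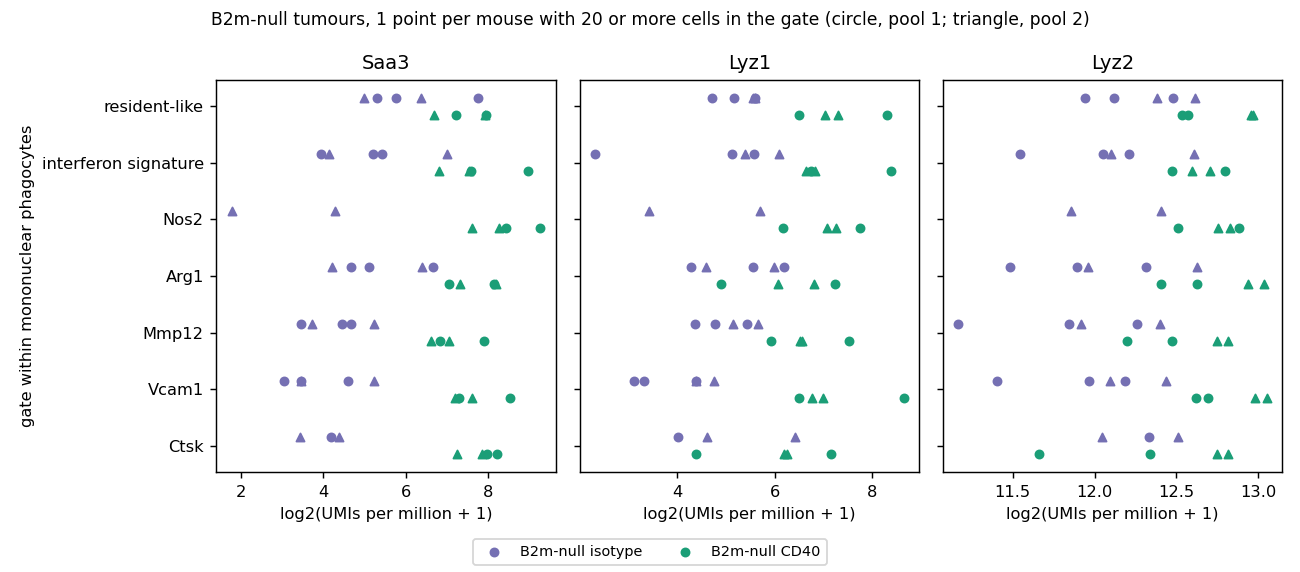
Saa3, Lyz1 and Lyz2 in B2m-null tumours within gates set on other genes, as log2(CPM + 1), with 1 point per mouse that had at least 20 cells in the gate, circles for pool 1 and triangles for pool 2. The CD40 mice lie to the right of all isotype mice for Saa3 in the Vcam1, Mmp12, Arg1, Nos2 and Ctsk gates, and overlap with them in the resident-like and interferon gates.

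The share of cells with the transcript rose, as did the level. With every cell thinned to 1500 UMIs, 9.72% ± 1.23 (SD, n = 4) of macrophages had a Saa3 UMI in B2m-null CD40 mice and 3.42% ± 1.18 (SD, n = 5) in B2m-null isotype mice, a difference of 6.30 percentage points that was higher in every CD40 mouse than in every isotype mouse (exact two-sided permutation test, p = 0.0159, the smallest possible here). Without thinning the shares were 17.9% and 6.35%. In control tumours the thinned shares were 0.757% to 3.75% under isotype and 15.3% and 17.9% under CD40. Thinning left out 526 of 4419 macrophages in B2m-null isotype, 544 of 4285 in B2m-null CD40, 712 of 5564 in control isotype and 2356 of 8262 in control CD40. T cells, which should lack Saa3, had a UMI in 0% to 3.28% of thinned cells in B2m-null isotype and in 0.546% to 1.88% in B2m-null CD40, with median depths of 2317 and 2271 UMIs against 6100 and 5517 in macrophages. The isotype macrophages of B2m-null tumours, at 1.74% to 4.65%, thus lay partly within the T cell background, and the CD40 macrophages, at 8.84% to 11.5%, above it. Shares of single mice carry counting error besides the spread between mice.

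Lyz1 was seen in 4.05% to 17.0% of thinned macrophages in B2m-null CD40 mice and in 2.27% to 4.47% in isotype mice, against 0.342% to 3.83% and 0% to 0.578% of T cells. Lyz2 was seen in 86.4% to 97.7% of B2m-null isotype macrophages and 88.6% to 96.2% under CD40, and in 17.5% to 32.4% of T cells of these groups. In B2m-null CD40 mice, 10.4% to 33.3% of the thinned macrophages with Saa3 had a Lyz1 UMI and 3.43% to 15.3% of those without, higher in 4 of 4 mice. In control isotype, the same held in 2 of the 3 mice with enough such cells. These differences within mice were not tested.

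Lyz1 rose relative to its copy. In macrophages there were 4.51, 9.14, 5.25, 8.02 and 7.68 Lyz1 UMIs per 1000 Lyz2 UMIs in B2m-null isotype mice and 54.6, 9.72, 19.5 and 20.4 in B2m-null CD40 mice. The lowest CD40 mouse stood just above the highest isotype mouse and the highest CD40 mouse far above the rest. The means were 6.92 ± 1.96 (SD, n = 5) and 26.1 ± 19.6 (SD, n = 4), a log2 difference of 1.68 (exact two-sided permutation test, p = 0.0159, the smallest possible here). In control tumours the ratio was 3.53 to 9.34 under isotype and 41.1 and 21.4 under CD40, without a test. In monocytes the ratio was 5.12 to 19.0 in B2m-null isotype mice and 10.4 to 49.1 in B2m-null CD40 mice, a log2 difference of 1.53 with overlapping mice (exact two-sided permutation test, p = 0.0476). Among the macrophage clusters its median was highest in cluster 4 in each group, at 5.53 to 14.0 and 25.01 to 86.7 in these groups, and at 48.5 and 59.1 in control CD40 mice.

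**Figure D3:**
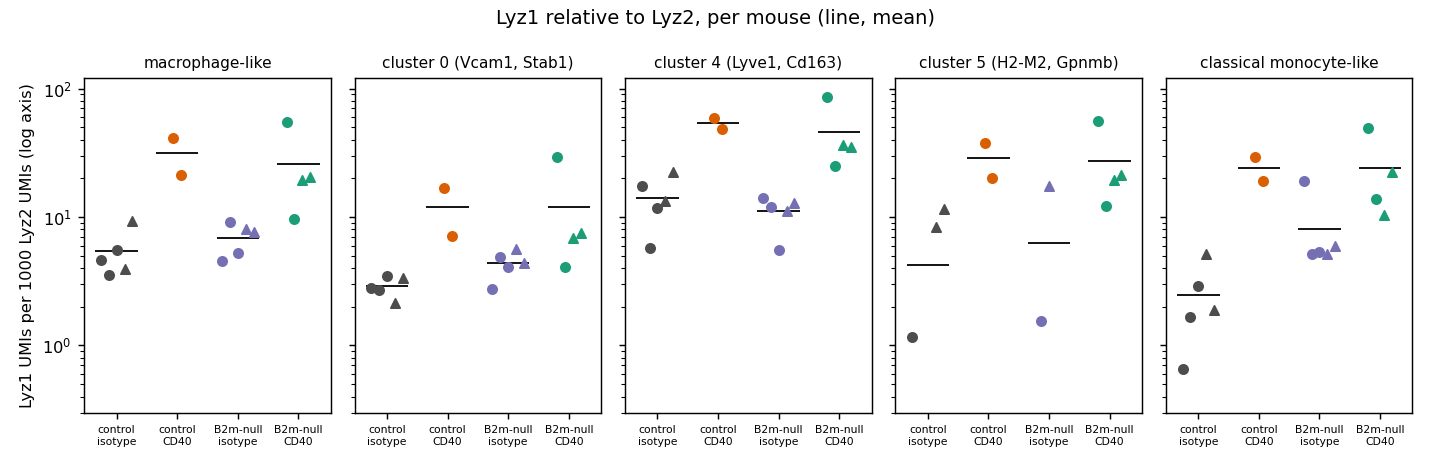
Lyz1 UMIs per 1000 Lyz2 UMIs (log axis) per mouse in macrophage-like cells, 3 of their clusters and classical monocyte-like cells, with circles for pool 1, triangles for pool 2 and the mean as a line. Mice with no Lyz1 UMI, all in cluster 5, enter the mean but have no point on the log axis, and B2m-null CD40 mice reach 86.7 in cluster 4, where isotype mice of that tumour end at 14.0.

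Outside the phagocytes, Saa3 was concentrated in fibroblast-like cells, carried over through the enrichment for CD45+ leukocytes. Their number reflects that enrichment, so the shares below are those of the captured cells and not of the tumour. Fibroblast-like cells, which made up 0.874% to 1.15% of the cells of a group, held 62.9%, 28.2%, 33.8% and 41.3% of all Saa3 UMIs, in the order control tumours under isotype and CD40, then B2m-null tumours under isotype and CD40. Over all cells of a group their Saa3 level was 1615, 2935, 1246 and 5024 CPM in that order. Per mouse with at least 20 such cells it ran from 440 to 4798 in 5 control isotype mice and was 3750 and 2478 in control CD40, 4112 in the 1 B2m-null isotype mouse and 3567 to 6604 in 3 B2m-null CD40 mice. With 1 B2m-null isotype mouse no comparison was made. Over all fibroblast-like cells of a group, Lyz1 was at 1.18 to 16.6 CPM. Macrophages held 22.3%, 51.2%, 51.6% and 20.4% of the Saa3 UMIs of the 4 groups, and monocytes held 25.6% in B2m-null CD40 and at most 5.34% elsewhere. Cluster 7, an unnamed mixture of T cell and myeloid transcripts, held 11.4% in control CD40.

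Below the fibroblasts, the ranges of Saa3 over mice in macrophages and monocytes overlapped in every group, but within a mouse the order differed by treatment. Saa3 was higher in monocytes than in macrophages in each of the 6 CD40 mice and lower in 8 of the 10 isotype mice, where several monocyte values rest on few UMIs. This order was not tested, and most monocytes of the CD40 mice with B2m-null tumours were of cluster 9. In the monocytes of these mice the macrophage markers summed to 4158 to 5181 CPM and the monocyte markers to 3021 to 4025. The name of the class is therefore less secure there. Neutrophil-like cells were at 46.9 to 750 in B2m-null CD40 mice and at most 9.35 in B2m-null isotype mice, from 29 to 108 cells a mouse. Mature dendritic cells, few under CD40, were at 1.85 to 7.74 in control isotype mice and at 552 in the 1 control CD40 mouse with at least 20 of them. T cells were at 3.85, 15.8, 4.56 and 7.66 over all cells of the 4 groups. Lyz1 UMIs lay mainly in macrophages, with 53.5%, 70.2%, 53.4% and 49.04% of them in the 4 groups, and cluster 1 held a further 24.0% in control isotype and 26.5% in B2m-null isotype. Monocytes held 30.2% in B2m-null CD40, and cluster 7 held 18.6% in control CD40. In neutrophil-like cells Lyz1 was at 0 to 30.1 in 3 of the 4 B2m-null CD40 mice and at 1106 in mouse 4.

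**Figure D4:**
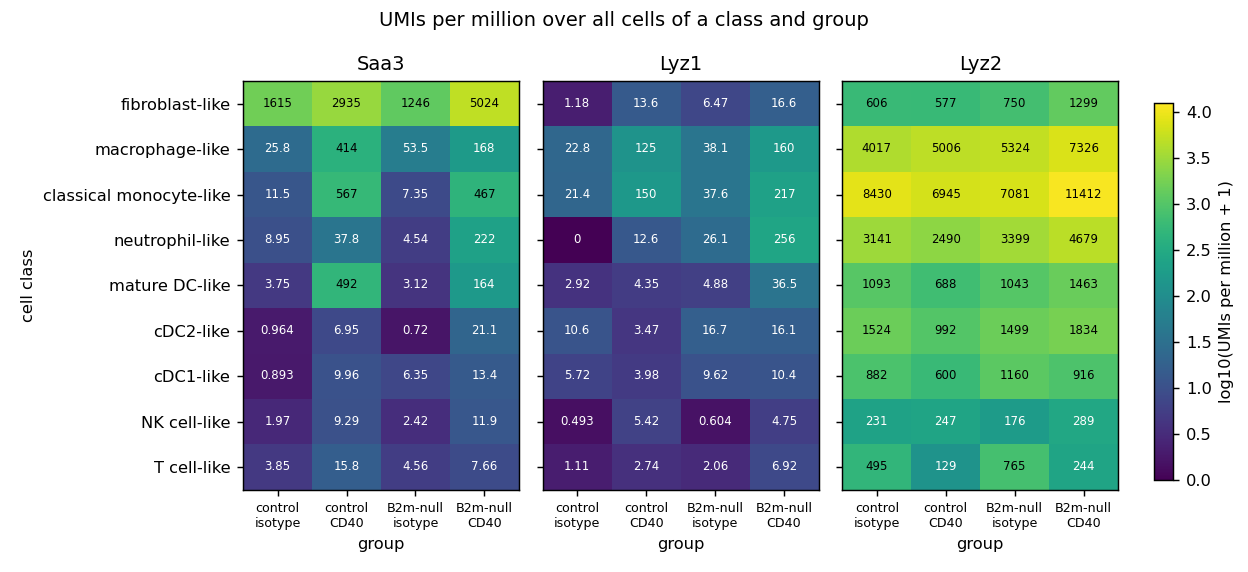
CPM of Saa3, Lyz1 and Lyz2 over all cells of 9 cell classes (rows) in the 4 groups (columns), with the colour on a log10 scale and the value printed in each field. Fibroblast-like cells lead for Saa3 in each group (1246 to 5024) and classical monocyte-like cells lead for Lyz2 (6945 to 11412).

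The other serum amyloid A genes did not pass the filter on low counts in macrophages or monocytes, which concerned Saa1, Saa2 and Saa4. Of 16 acute-phase genes, 9 were tested in B2m-null macrophages, 6 rose, 1 fell and 2 were not called, and their median log2 change was 1.479 beside -0.02 over all 11669 genes, of which 33.0% were called. Orm1, an acid glycoprotein of serum, rose by 6.31 ± 0.57 (adjusted p = 2.39e-06), the complement component C3 by 2.83 ± 0.29 (adjusted p = 6.72e-06), the protease inhibitor Slpi by 2.43 ± 0.52 (adjusted p = 0.00187) and complement factor B (Cfb) by 1.57 ± 0.21 (adjusted p = 3.41e-05; log2 ± SE, edgeR's quasi-likelihood test). Lbp, which binds bacterial lipopolysaccharide, fell by 1.84 (SE 0.48, adjusted p = 0.00688, edgeR). In monocytes 8 of the 16 were tested, 7 rose and 1 was not called, with a median of 2.201, where 17.5% of all genes were called higher and 34.9% in either direction. Orm1 was also a leading gene of cluster 5 and Cfb of cluster 9, so their rise and the larger share of those clusters under CD40 are not separate results.

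Of 10 receptors that have been described for serum amyloid A, 9 were tested in B2m-null macrophages, and 3 rose, 1 fell and 5 were not called, with a median of 0.30. With 33.0% of all genes called, this count is near the background. Fpr2, the formyl peptide receptor best known as a receptor of serum amyloid A, rose by 1.89 ± 0.32 (adjusted p = 0.00032), its relative Fpr1 by 0.87 ± 0.22 (adjusted p = 0.00531) and the lipopolysaccharide co-receptor Cd14 by 0.82 ± 0.14 (adjusted p = 0.000366). Tlr4 fell by 0.34 (SE 0.11, adjusted p = 0.0223; all log2, edgeR's quasi-likelihood test). In monocytes Fpr1 (3.01 ± 0.43), Fpr2 (1.99 ± 0.21) and Cd14 (0.51 ± 0.14) rose and 6 were not called, where 34.9% of all genes were called. Fpr2 was also a leading gene of cluster 9, so its rise and the larger share of that cluster are not separate results.

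Among inducers of serum amyloid A genes, that is, cytokines, their receptors and transcription factors, 16 of 18 were tested in B2m-null macrophages, 8 rose, none fell and 8 were not called, with a median of 0.40, beside 16.5% of all genes called higher and 33.0% in either direction. Ifng rose by 2.25 ± 0.67 (adjusted p = 0.0151), Il1a by 1.43 ± 0.36 (adjusted p = 0.00578), and both the myeloid factor Spi1 and Tnf by 0.72 (adjusted p = 0.00162 and 0.00285; log2 ± SE, edgeR's quasi-likelihood test). Ifng is a gene of T and NK cells, the T cell markers of these macrophages are given above, and their part in this value was not tested. Relb (0.59), Nfkb2 (0.52), Rela (0.42) and Cebpb (0.39) rose too, with adjusted p of 0.0107, 0.0174, 0.00208 and 0.0303 (edgeR). Il1b, Il6, Cebpd and Stat3 were not called, with log2 changes of 0.41, -0.36, -0.09 and 0.11. Nor were Cebpa, Nfkb1, Il6ra and Osm, with -0.17, -0.23, -0.37 and 0.08. In monocytes 15 were tested, and 3 rose (Il1a, Relb and Spi1) and 3 fell (Il6ra, Osm and Nfkb1), with a median of -0.10, where 34.9% of all genes were called. Osm was a leading gene of cluster 3, whose share was smaller under CD40.

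Of 16 secreted antimicrobial proteins, 9 were tested in B2m-null macrophages, and 3 rose, 1 fell and 5 were not called, with a median of 0.77, a count near the 33.0% of all genes called. Wfdc21 rose by 2.73 ± 0.42 (adjusted p = 0.000139), Slpi as above and S100a8, a calcium-binding protein of neutrophils and monocytes, by 2.32 ± 0.39 (adjusted p = 0.000322), whereas Wfdc17 fell by 0.54 (SE 0.15, adjusted p = 0.0101; log2, edgeR's quasi-likelihood test). In monocytes Lcn2, S100a8, S100a9, Slpi and Wfdc21 rose, Chil3, a leading gene of cluster 3, fell and 3 were not called, where 34.9% of all genes were called. Lcn2, S100a8 and S100a9 were leading genes of the neutrophil-like cluster 20, and S100a8 and S100a9 are among the neutrophil markers summed above. The part of neutrophil transcripts in these values was not tested. Of 17 lysozyme relatives and genes of peptidoglycan sensing, 9 were tested in macrophages, with a median of 0.34 and a share called below the 33.0% of all genes. Slc15a3, a transporter of peptidoglycan fragments, rose by 0.46 ± 0.12 (adjusted p = 0.00783), Slc46a3 fell by 0.61 (SE 0.22, adjusted p = 0.038, edgeR's quasi-likelihood test) and 7 were not called. Lyzl4, with a log2 change of -0.25 (SE 0.42), was the only lysozyme relative tested. In monocytes 7 were tested and edgeR called 0, with 1 at an unadjusted p under 0.05 and a median of -0.02.

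**Figure D5:**
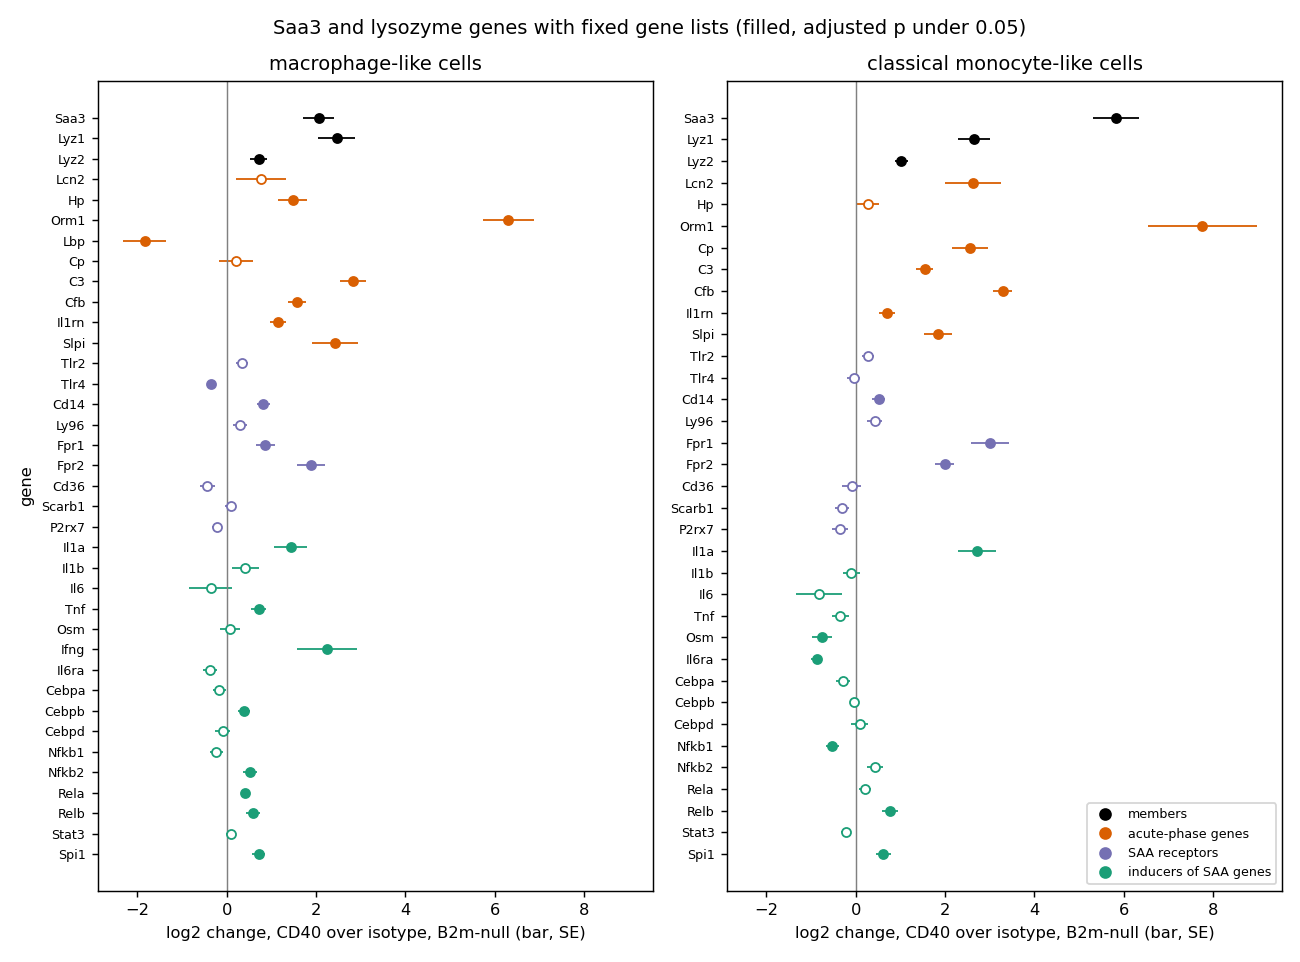
Fitted log2 change (bar, SE) of CD40 over isotype in B2m-null tumours for the 3 members, acute-phase genes, serum amyloid A receptors and inducers of serum amyloid A genes in macrophage-like cells (left) and classical monocyte-like cells (right), filled where the adjusted p was under 0.05. Orm1 is farthest to the right in both panels (6.31 and 7.76), and Saa3 is at 2.06 and 5.83.

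Genes whose level followed the members most closely over the 16 mice were listed by Pearson's correlation of log2 CPM in macrophages, among 5775 genes with a mean of at least 20. For Saa3 they were Znrf1 (r = 0.95), S100a1 (0.91), S100a6 (0.89), Cox7c (0.89) and Tmem258 (0.88). With the group means removed, r was 0.76 for Znrf1 and 0.21 to 0.43 for the other 4. For Lyz1 they were Pdlim4, Ecm1, Smim7, Plbd2 and Map1lc3a, with r of 0.86 to 0.89, and for Lyz2 Pdlim4, Cd37, Tle5, Glmp and Dap, with r of 0.85 to 0.89. Within groups Ecm1 kept 0.75, Smim7 0.63, Pdlim4 0.53, Plbd2 0.45 and Map1lc3a 0.43 to Lyz1. To Lyz2, Glmp kept 0.84, Tle5 0.83, Pdlim4 0.82, Cd37 0.71 and Dap 0.64. The mice share lanes, depth and treatment, so these values describe likeness alone.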

How the data were processed

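The deposited matrices hold UMI counts per gene and barcode, made with Cell Ranger 3.0.0 on mm10 per the file headers and the submitters' processing notes. How reads that fit both Lyz1 and Lyz2 were counted is not given in the sources used here. The members and gene lists were chosen with earlier results of these data known.

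Hashtag counts assigned barcodes to mice (posterior of at least 0.9). Barcodes with 2 hashtags raised, 9673 of 116552, were removed as doublets; doublets within 1 mouse carry 1 hashtag and were not marked. Cells under 200 genes or over 10% mitochondrial UMIs were dropped, and the others were clustered with scanpy 1.11.5 and leidenalg 0.10.2 (2000 variable genes without the 3 members, 40 components, resolution 1) into 29 clusters. Clusters were named from fixed marker lists with thresholds set after the data had been seen. Phagocytes with at least 3 UMIs of T cell receptor and CD3 genes were removed as mixtures.

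Counts were summed per mouse and class and fitted over all 4 groups with edgeR 4.0.16 (TMM, quasi-likelihood, R 4.3.3) over all genes past the low-count filter, with Benjamini-Hochberg adjustment and a threshold of 0.05. DESeq2 1.42.0 was an alternative. On simulated counts the fit recovered 77% of 2-fold and 95% of 4-fold changes in macrophages and 78% and 99% in monocytes, of 100 genes each. Those counts were drawn independently for each mouse, without a lane effect, and scarce genes were not changed. The rates therefore do not cover the lanes that real mice share. Single values were compared by exact two-sided permutation tests. Per list, up to 4 genes per direction with the largest change past the threshold were named, and per member the 5 genes with the highest correlation. For the inducers of serum amyloid A genes, all that were tested in macrophages were named.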

Additional observations from a re-analysis of the deposited data

Results flagged for a closer look

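In 24 checks of a member or the lysozyme ratio within a group of 4 or 5 mice, 6 had a mouse set far from the others, where chance sets about 1 in 20 apart. In macrophages, Lyz1 of control isotype mouse 5 was at 49.1 CPM, with the nearest mouse at 22.4. In monocytes, Saa3 of control isotype mouse 1 was at 37.9, with the nearest at 13.1. B2m-null isotype mouse 1 stood apart in monocytes for Saa3 (70.0, nearest 6.48), for Lyz1 (124, nearest 56.2) and for Lyz1 per 1000 Lyz2 UMIs (19.0, nearest 6.00). These rest on 132 cells with 18 Saa3 and 32 Lyz1 UMIs. Lyz2 of B2m-null isotype mouse 5 was at 9367 in monocytes, with the nearest at 6565.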

How the results depend on the processing

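Of 219 values of the members under the alternatives, 214 kept their direction and their side of the threshold, 5 lost the call and 0 reversed. Many of these settings left out only control mice or lanes, which bear on the B2m-null comparison only through the shared fit. The 214 also include Saa3 in cluster 5, for which no fold is given above. The count therefore overstates how far the values were put to the test. Lyz2 in B2m-null macrophages lost it without B2m-null CD40 replicate 2 (0.28), without B2m-null isotype replicate 1 (0.50), with the lane as the sample (0.60) and in cluster 5 alone (0.70), where Lyz1 lost it too (1.95); the cause was not tested. Leaving out lanes or mice gave 0.276 to 1.06 for Lyz2, 1.81 to 2.5002 for Saa3 and 2.11 to 2.88 for Lyz1. Saa3 was 1.46 with the stricter cell filter and 1.64 with the stricter naming margin. The number of genes called in B2m-null macrophages, 3848, was 1729 with thinned counts, 2249 with the lane as the sample and 1965 to 3828 with samples left out. In monocytes, 3180 became 1622 with a stricter naming margin, 1554 with thinned counts and 2332 to 3169 with samples left out. Lyz2 in control monocytes, a description, was -0.354 to -0.0121 with samples left out. Gates at 1 UMI gave 15 of 21 calls in place of 8, and thinned cells 6 of 18. With a replicate block the counts were 4050 and 3343 and Saa3 2.07. Deviations of same-numbered lanes correlated at 0.0525 to 0.165 in macrophages and -0.0016 to 0.188 in monocytes, the highest of each being B2m-null isotype with B2m-null CD40, the pair tested. As not every pair was over 0.1, the numbers were not taken to pair the lanes. Fits within clusters, at resolution 2 and with cluster 1 added were chosen after seeing the data. Cluster 9 alone could not be fitted, with 1 B2m-null isotype mouse. DESeq2 called 3642 and 2728 genes.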
